A study of Mus musculus with 2 samples.

Results

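The cells described here are the adult mouse oviduct cells to which the authors gave cluster number 1, chosen by the Ovgp1 count of each cell, that is by whether it held a transcript of Ovgp1, the gene for the oviduct glycoprotein that coats the egg. Each cell barcode was taken once. Of 406 distinct adult cells, 183 lay in cluster 1. Of these, 54 had at least 1 unique molecular identifier (UMI, 1 counted RNA molecule) of Ovgp1 and are called Ovgp1-positive, and 129 had 0 and are called Ovgp1-zero. Both sets come from a single library of dissociated oviduct cells from C57BL/6 adults at estrus, sorted with antibodies to the epithelial protein Epcam and the leukocyte protein CD45 and read with 10x Chromium 3' V2 chemistry. The labels do not give the number of animals. With 1 library there is no replicate, cells are not replicates, and no test was made. Intervals in brackets are exact 95% intervals and cover counting error only.

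The oviduct lining holds multiciliated cells, whose beating cilia move eggs and fluid, and secretory cells, which release the proteins of the oviduct fluid. Ovgp1 is the best known product of the secretory cells and responds to estrogen. Foxj1 is the transcription factor that switches on the genes of motile cilia, and its presence is a common mark of multiciliated cells. In droplet sequencing a transcript of one cell type can be counted under the barcode of another, through RNA free in the suspension or through a pair of cells in 1 droplet, and deeper cells show any transcript more often.

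Cluster 1 carried genes of multiciliated cells in both sets of cells. Foxj1 (chromosome 11, 116330704 to 116335399, minus strand, build GRCm38) had a UMI in 45 of 54 Ovgp1-positive cells and 90 of 129 Ovgp1-zero cells. Its level, the pooled UMI of a group per 10000 UMI, was 8.26 (7.15 to 9.49) in Ovgp1-positive cells and 7.97 (7.06 to 8.96) in Ovgp1-zero cells. In clusters 0 and 4, whose cells carry secretory genes, it was 0.174. All 48 listed genes of cilium structure were measured in cluster 1, where measured means a UMI in at least 10% of the cells of either set.

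The promoters of Ovgp1 and Wfdc18 are shown because the report turns on how far these genes occur in the same cells. Ovgp1 lies on chromosome 3 (105973711 to 105987423, plus strand) and Wfdc18, which encodes a small secreted protein of the whey acidic protein family, on chromosome 11 (83709015 to 83711348, plus strand). The sequences are from RefSeq, build GRCm38.p6, 250 bases before to 50 bases after the start in RefSeq. For both genes that start differs from the gene start given above, which is from GENCODE. Capitals mark AGGTCA, the core repeat of the estrogen response element, in the first (chr3:105973552-105973851, plus strand) and the TATA box TATAAA in the second (chr11:83708754-83709053, plus strand).
Ovgp1: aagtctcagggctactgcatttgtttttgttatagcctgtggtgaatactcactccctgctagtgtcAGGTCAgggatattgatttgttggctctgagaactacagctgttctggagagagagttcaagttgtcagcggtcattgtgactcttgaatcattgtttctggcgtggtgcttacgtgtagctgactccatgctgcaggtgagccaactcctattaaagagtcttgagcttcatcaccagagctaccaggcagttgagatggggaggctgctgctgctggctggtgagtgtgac
Wfdc18: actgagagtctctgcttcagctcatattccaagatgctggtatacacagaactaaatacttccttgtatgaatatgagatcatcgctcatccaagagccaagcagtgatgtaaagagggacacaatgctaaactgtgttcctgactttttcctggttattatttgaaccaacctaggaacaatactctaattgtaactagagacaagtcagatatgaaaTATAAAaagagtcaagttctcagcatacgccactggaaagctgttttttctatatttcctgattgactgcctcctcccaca
Searched on both strands, AGGTCA is in 16.3% and TATAAA in 13.6% of 32851 promoters of this length. The full element GGTCANNNTGACC (0.0700% of promoters), the forkhead core GTAAACA (3.65%) and the X-box core GTTGCC (12.5%) are not in either window. A match is a description of the letters only.

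The rule rests on few molecules per cell. Ovgp1 counts in the 54 positive cells ran between 1 and 79 UMI with a median of 2. Of these cells 23 held 1 UMI, just inside the rule, 17 held 2 to 4 and 14 held 5 or more. The 5 cells with the most Ovgp1 held 79, 44, 34, 30 and 26 UMI, which is 58.4% of the 365 UMI of cluster 1. Pooled, Ovgp1 stood at 15.1 (13.6 to 16.8) in positive cells and at 0 in the zero cells, where 3 counts, the floor used here, would be 0.0854. These levels follow from the rule.

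The adult table lists most barcodes under a second column prefix, whose nature the labels do not state, and 182 barcodes of cluster 1 have both columns. Ovgp1 was present in both columns for 47 of them, in the first alone for 7, in the second alone for 15 and in neither for 113. The Ovgp1 count was the same in both columns for 147. The border between 0 and 1 UMI thus moved for 22 barcodes.

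Ovgp1-positive cells were deeper. They held 522 to 16207 UMI (median 3862.5) against 502 to 12124 (median 2945) in Ovgp1-zero cells, and 389 to 5159 genes (median 1936.5) against 335 to 3857 (median 1574). The ranges overlap, and all cells above 12124 UMI are positive. With cluster 1 cut by UMI per cell into 3 depth classes of 61 cells, the share of positive cells was 18.03% (9.36 to 30.0) in the lowest class, 24.6% (14.5 to 37.3) in the middle and 45.9% (33.1 to 59.2) in the highest. The level of Ovgp1, already divided by depth, was 2.75, 2.97 and 8.42 in the same order. The 5 cells with the most Ovgp1 held 213 of the 294 Ovgp1 UMI of the highest class, so the level of that class rests mostly on them. Mitochondrial genes took a median of 4.58% of UMI in positive and 4.29% in zero cells. The plot of Ovgp1 count against depth shows every cell.

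**Figure D1:**
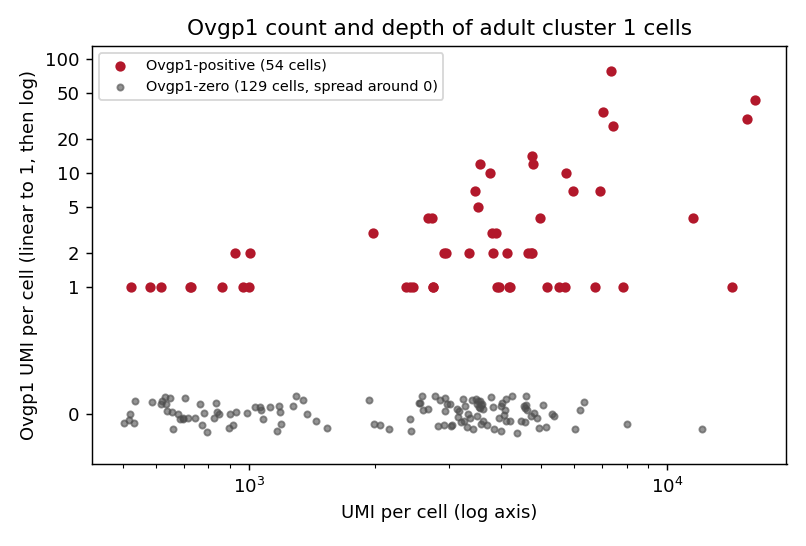
Ovgp1 UMI per cell against total UMI per cell for the 183 cells of adult cluster 1, with the 129 Ovgp1-zero cells spread around 0. The counts of 26 and more lie at 7018 UMI per cell or above, while cells with 1 Ovgp1 UMI occur from 522 to 14252 UMI.

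The share of cluster 1 cells with an Ovgp1 UMI was 29.5% (23.01 to 36.7, median depth 3165 UMI), against 90.7% (85.1 to 94.7, median 3221) in clusters 0 and 4. Thinned to 1000 UMI, with shallower cells left out, it was 19.0% against 87.1%. Cells rich in smooth muscle genes, a mark of another cell type, are few in this library. The 7 cells of cluster 5 with at least 10 UMI of smooth muscle genes all had an Ovgp1 UMI, at a median depth of 7757 UMI, and 84.1% at 1000 UMI. Their Ovgp1 level was 27.7 (23.6 to 32.4), against 6.16 (5.55 to 6.83) in cluster 1. The share in cluster 1 lies below the share in those 7 cells. Those 7 cells also held 183 UMI of Wfdc18, in 5 of them, and Lcn2, Kctd14 and Clu each in 6. Their median summed level of the other secreted products was 102.7, against 145.2 in clusters 0 and 4. They are thus not a set free of secretory RNA. Whether a single Ovgp1 UMI in cluster 1 was expressed by the cell was not tested, and it is not read here as expression.

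In clusters 0 and 4 Wfdc18 is found in nearly every cell rich in Ovgp1, and in cluster 1 it stood highest above the zero cells among the genes of secreted proteins. It had a UMI in 13 of 54 Ovgp1-positive cells, with 374 UMI in all, and in 16 of 129 Ovgp1-zero cells, with 22 UMI and at most 4 per cell. The level was 15.5 (13.98 to 17.2) in positive and 0.626 (0.392 to 0.948) in zero cells, a ratio of 24.8 (16.1 to 40.0). At 1000 UMI per cell the shares with Wfdc18 were 17.8% and 6.21%.

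Of the 40 listed genes for secreted products other than Ovgp1, 16 were measured. At least 2-fold higher in positive cells were 6 of them, against 6.52% of the 5740 measured genes of the whole table, and 1 was at least 2-fold lower, against 2.07% (8.59% in either direction). Their median log2 fold, with 0.1 per 10000 added to each level, was 0.59, against 0.10 over all measured genes. A gene seen mainly in positive cells could pass the filter through those cells alone, so these shares describe the list and support nothing by themselves. Summed over the list, the level was 50.9 in positive and 25.7 in zero cells.

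Next to Wfdc18 in size of ratio among the secreted products were Lcn2 and Ltf. Lcn2, whose product binds bacterial siderophores, stood at 1.95 (1.43 to 2.59) in positive and 0.142 (0.0462 to 0.332) in zero cells, a ratio of 13.7 (5.47 to 44.2). A single positive cell held 72.3% of its 47 UMI. Ltf, which encodes the iron-binding lactoferrin, stood at 1.16 (0.772 to 1.68) against 0.142 (0.0462 to 0.332), a ratio of 8.16 (3.11 to 27.1), with a UMI in 9 positive and 5 zero cells. Ctsb, for the lysosomal and secreted protease cathepsin B, was spread over more cells, 33 of 54 positive and 40 of 129 zero cells, at 4.85 (4.01 to 5.82) against 1.65 (1.25 to 2.13). The chaperone gene Clu stood at 1.78 against 0.711, a ratio of 2.51 (1.497 to 4.28), and Wfdc15b at 0.996 against 0.370, a ratio of 2.69 (1.32 to 5.76).

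The other secreted products were lower or had ratio intervals that include 1. Wfdc2, another gene of the whey acidic protein family, was lower in positive cells at 0.664 (0.379 to 1.08) against 1.45 (1.08 to 1.91) in zero cells. The intervals of the remaining 9 measured members include 1, for Mfge8, Gpx3, Bpifb1, Timp2, Cst3, Spp1, Fxyd4, Ctsl and Igfbp5, with ratios between 0.765 for Igfbp5 and 1.98 for Mfge8. Spp1, which encodes osteopontin, stood at 6.39 against 6.12 and is dominated by single cells, with 79 of 154 UMI in 1 positive cell and 160 of 215 in 1 zero cell. Not measured were 23 listed genes of the table, among them Dcpp3 (24 UMI in 4 positive cells, 5 UMI in 4 zero cells), and 1, Spink3, is not used here.

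The genes with the largest folds upward were mostly carried by a few positive cells. Kctd14 had 67 UMI in 7 positive cells and 1 UMI in the zero cells (ratio 97.7, 16.9 to 3915). Gatm, for an enzyme of creatine synthesis, had 25 UMI against 1 (ratio 36.4, 5.97 to 1496), and the cyclin gene Ccnd1 33 against 2 (24.1, 6.15 to 206.9), with 81.8% of the UMI of Ccnd1 in 1 cell. The growth factor binding protein gene Igfbp4 had 32 UMI against 3 (15.6, 4.87 to 79.4) and Plat, for tissue plasminogen activator, 27 against 3 (13.1, 4.04 to 67.6). The selenium carrier gene Sepp1 stood at 2.49 against 0.512 and Shisa8 at 1.20 against 0.114. Arc, an immediate early gene, stood at 0.830 against 0.0854 and Mmp8, a collagenase gene, at 1.91 against 0.341.

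The Wfdc18 came mostly from 7 Ovgp1-positive cells, picked once their values were known. These are the 7 cells of cluster 1 with 5 or more Wfdc18 UMI, and they held 367 of the 374 Wfdc18 UMI of positive cells. Their Ovgp1 counts were 79, 4, 44, 30, 1, 26 and 1 UMI, and their Wfdc18 counts in the same order were 123, 115, 52, 34, 29, 8 and 6 UMI. Their depth was 2470 to 16207 UMI (median 11506), and 6 of them held at least 7000 UMI. Cluster 1 has 10 cells of that depth, 8 positive and 2 zero. The 7 cells held 43 of the 47 Lcn2 UMI, 22 of 28 of Ltf, 63 of 67 of Kctd14, 31 of 33 of Ccnd1 and 52 of 60 of Sepp1.

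**Figure D2:**
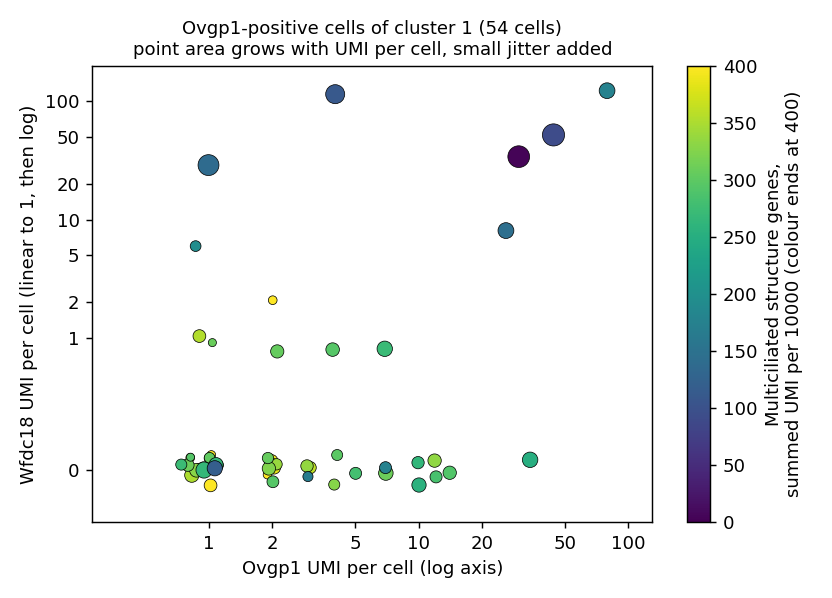
Wfdc18 UMI against Ovgp1 UMI in each of the 54 Ovgp1-positive cells, with point area growing with depth and colour giving the summed level of cilium structure genes. The 7 cells with 6 to 123 Wfdc18 UMI are mostly large and dark, while cells with up to 34 Ovgp1 UMI lie at 0 Wfdc18.

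The same 7 cells were low in cilium genes. The summed level of the 48 cilium structure genes was 4.51 to 194.3 per 10000 in them (median 137.5), against 75.1 to 603.8 (median 348.7) in the zero cells. The median in clusters 0 and 4 was 5.39. The lowest of the 7, a cell of 15527 UMI, also had a smooth muscle level of 67.6 and no UMI of Foxj1 or Tmem212. Ribosomal protein genes took a median of 15.3% of UMI in the 7 cells, 9.30% in zero cells and 23.4% in clusters 0 and 4. Of the 12 cluster 1 cells with a cilium level under 200, 10 were Ovgp1-positive. Depth, the level of cilium genes and that of ribosomal protein genes thus moved with the Wfdc18 of these cells. Their part in the result was not tested.

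A further 10 Ovgp1-positive cells held 5 or more Ovgp1 UMI and under 5 of Wfdc18, a set also chosen after its values were seen. They held 5 to 34 Ovgp1 UMI (median 10) at 3476 to 7018 UMI per cell, and 1 UMI of Wfdc18 in all 10 together. Their cilium level was 175.5 to 333.2 (median 275.9), within the range of the zero cells but below their median of 348.7. The upper quartile of the 10 cells, 288.8, lay below the lower quartile of the zero cells, 291.1. Pooled Ovgp1 was 24.8 (21.3 to 28.6) in the 7 cells, with 79 of its 185 UMI in 1 cell, and 23.9 (19.7 to 28.6) in the 10. Wfdc18 was 49.1 (44.2 to 54.4) in the 7 cells, 0.202 (0.00512 to 1.13) in the 10 and 0.626 in zero cells. The choice of the cells by these counts fixed that Wfdc18 is high in the 7 cells and low in the 10, and that Ovgp1 is high in the 10.

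Levels were also set against the pooled level of clusters 0 and 4. In the 10 cells Ovgp1 stood at 28.9% of that level and Wfdc18 at 0.267%, both fixed by the choice of these cells. Of genes not used in the choice, Ctsb stood at 40.3% and Hspa5 at 90.1%, and Lcn2 at 1.20%, Kctd14 at 4.02% and Ltf at 5.61%. In the 7 cells Ovgp1 stood at 30.0%, Wfdc18 at 64.9%, Kctd14 at 55.9%, Ltf at 40.8%, Gatm at 37.1%, Sepp1 at 36.4%, Lcn2 at 34.2% and Clu at 25.4%. Some genes passed the level of clusters 0 and 4 in the 7 cells, with Igfbp4 at 157.0% and Ccnd1 at 140.9%. Of the 31 Ccnd1 UMI, 27 were in 1 cell. Spp1 (1044%), Tagln (968.4%), Acta2 (707.8%) and Wt1 (160.3%) passed it too. Shisa8 at 96.0% and Hspa5 at 85.8% lay below it. Several of these values rest on single cells among the 7. A single cell held 79 of 87 Spp1 UMI, 26 of 29 for Tagln and 42 of 47 for Acta2. The like counts were 34 of 43 for Lcn2, 16 of 28 for Igfbp4 and 13 of 43 for Wt1. Agr2, which encodes a disulfide isomerase of mucus-secreting cells, was at 6.45% in the 7 cells and had 0 UMI in the 10. In zero cells Wfdc18 was at 0.828%, Lcn2 at 0.846% and Ctsb at 10.3%.

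**Figure D3:**
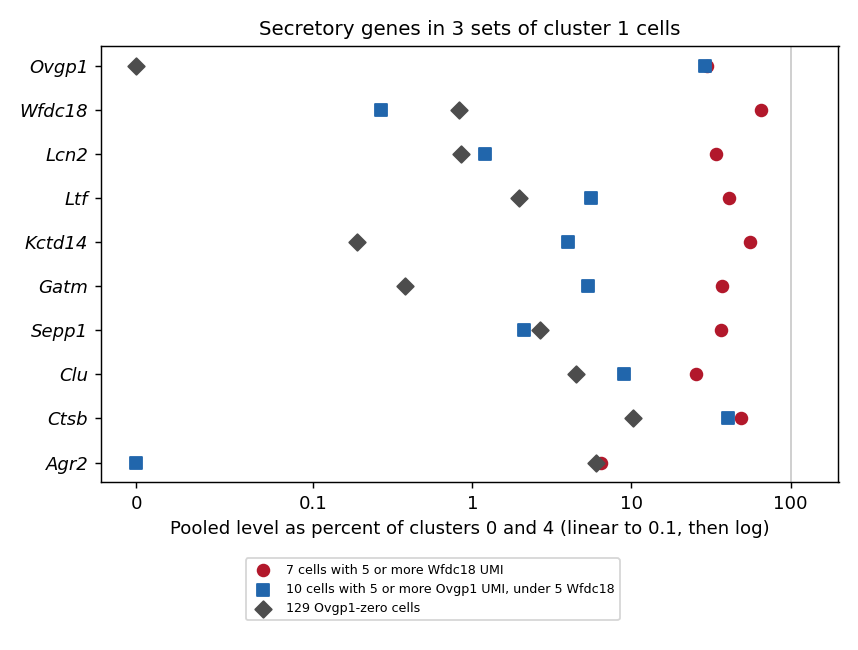
Pooled level of 10 genes as percent of their level in clusters 0 and 4, in the 7 Wfdc18-rich cells, the 10 other Ovgp1-rich cells and the 129 Ovgp1-zero cells of cluster 1. Both rich sets have Ovgp1 near 30.0% and Ctsb at 40.3% or above, but for Wfdc18, Lcn2, Ltf, Kctd14, Gatm and Sepp1 the 10 cells lie near the zero cells or between.

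Ovgp1 without Wfdc18 was seen in differing shares of cells by cluster. Of the cells with 5 or more Ovgp1 UMI, 9 of 14 in cluster 1 had 0 Wfdc18 UMI, as had 10 of 15 in cluster 3, the other cluster with cilium genes, 5 of 17 in cluster 5, 2 of 85 in cluster 0 and 1 of 30 in cluster 4. The median depths of these Ovgp1-rich cells were 5844.5, 4242, 5125, 4924 and 1188.5 UMI in the same order. Per Ovgp1 UMI over all cells, there were 1.08 Wfdc18 UMI in cluster 1, 0.0396 in cluster 3, 0.870 in cluster 5, 1.19 in cluster 0 and 0.449 in cluster 4. The ratio of cluster 1 rests on the 7 cells named above.

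The 10 cells held other genes at a higher level than the zero cells. Sox17, a transcription factor gene of oviduct secretory cells, stood at 2.63 (1.40 to 4.49) against 0.313 (0.156 to 0.560), a ratio of 8.40 (3.47 to 20.7). Ctsb had a ratio of 3.92 (2.46 to 6.14), the chaperone gene Hspa5 2.44 (1.58 to 3.69) and the keratin gene Krt18 2.32 (1.67 to 3.19). Ctsb had a UMI in all 10 cells, but 1 cell held 15 of its 32 UMI. Bpifb1, an airway and oral secretory gene with 0 UMI in clusters 0 and 4, stood at 3.44 against 1.11 (ratio 3.10, 1.64 to 5.60). Mmp8 stood at 2.63 against 0.341, from 13 UMI in 4 cells against 12 UMI in 3 zero cells. Arc stood at 2.43 against 0.0854, from 12 UMI in 3 cells against 3 UMI in 3 zero cells. Spp1 went the other way, at 1.62 against 6.12, but 1 zero cell held 160 of the 215 Spp1 UMI of the zero cells. A Spp1 UMI was found in 7 of the 10 cells and 41 of 129 zero cells. Tmem212, a cilium gene, was at 73.6% of its level in zero cells, and at 28.7% in the 7 cells. Several of the raised genes are not particular to the 10 cells. Cluster 3 had Sox17 at 2.76, Ctsb at 9.74, Hspa5 at 5.20, Krt18 at 21.1 and Arc at 4.63. Bpifb1 (0.812) and Mmp8 (0.649) were lower in cluster 3 than in the 10 cells.

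Levels by Ovgp1 count gave a graded picture for some genes. In cells with 0, 1, 2 to 4 and 5 or more Ovgp1 UMI, Ctsb stood at 1.65, 2.49, 2.78 and 8.23 and Hspa5 at 2.65, 3.86, 6.17 and 6.67. Of the 79 Ctsb UMI in cells with 5 or more, 62 were in the 5 cells with the most Ovgp1. Wfdc18 stood at 0.626, 4.61, 18.4 and 22.7, but each of the 3 upper values is set by some of the 7 cells. Lcn2 stood at 0.142, 0.125, 0.463 and 4.48. Foxj1 had no such order, at 7.97, 9.85, 8.64 and 6.67. Cilium structure genes summed to 330.5, 271.5, 298.2 and 181.6, and the plot of cilium genes by Ovgp1 count shows the cells behind these sums.

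**Figure D4:**
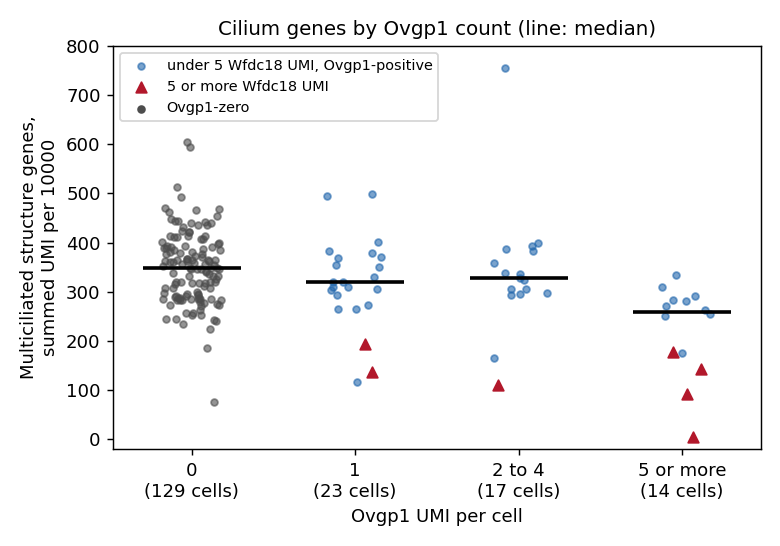
Summed level of 48 cilium structure genes in each cluster 1 cell by Ovgp1 UMI, with medians as lines and the 7 cells with 5 or more Wfdc18 UMI as triangles. The triangles lie between 4.51 and 194.3, under nearly all other cells.

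Genes of the machinery that folds and exports secreted proteins mostly differed by less than 2-fold. Of 43 genes of the endoplasmic reticulum and secretory pathway 38 were measured, 33 had a log2 fold above 0, where 3361 of all 5740 measured genes had. At least 2-fold higher was 1 (Hspa5), a share below the 6.52% of all measured genes, and none was 2-fold lower. The median log2 fold was 0.37, against 0.10 over all measured genes. It was 0.40 with 2 or more Ovgp1 UMI, 0.33 as a mean over cells and 0.27 with cells of at least 1000 UMI weighing alike. It was 0.13 without the 5% deepest cells, 0.09 without cells with non-epithelial markers and −0.07 in the lowest depth class. The summed level was 125.9 in positive and 101.1 in zero cells. By Ovgp1 count of 0, 1, 2 to 4 and 5 or more, the sum was 101.1, 109.8, 115.2 and 146.6. Hspa5, for the main chaperone of the reticulum, had a UMI in 37 of 54 positive and 51 of 129 zero cells, at 5.60 (4.70 to 6.63) against 2.65 (2.14 to 3.24). Its partner Hsp90b1 stood at 6.14 against 3.78 and Xbp1, a transcription factor of the unfolded protein response, at 2.49 against 1.48. Sec11c, of the signal peptidase, stood at 0.581 against 1.11.

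Among the 11 measured secretory cell markers 3 were at least 2-fold higher, against 6.52% of all measured genes, and the summed level of the list was 70.3 in positive and 71.0 in zero cells. Krt18 stood at 10.4 (9.13 to 11.7) in positive and 4.61 (3.93 to 5.38) in zero cells and Sox17 at 1.29 (0.874 to 1.83) against 0.313 (0.156 to 0.560), in 16 of 54 and 10 of 129 cells. Ehf, an epithelial transcription factor gene, had 12 UMI against 6. Pax8, the transcription factor most used to mark oviduct secretory cells, had 4 UMI in 4 positive cells and 0 UMI in the zero cells, too few for a ratio. Wt1, of the urogenital tract, stood at 4.61 against 3.36 (ratio 1.37, 1.05 to 1.79) and Epcam at 4.36 against 3.39 (1.29, 0.980 to 1.69). The estrogen receptor gene Esr1 stood at 0.913 in positive and 0.484 in zero cells. It belongs to a list of steroid hormone response genes, of which 7 were measured. At least 2-fold higher was 1, against 6.52% of all measured genes, and none was 2-fold lower. Their sum was 7.01 in positive and 6.57 in zero cells. Their median log2 fold was 0.68, and −0.05 without the 7 Wfdc18-rich cells. Hoxb6, with 8 UMI against 2, was the one of 13 measured regional genes past 2-fold, a share near the 6.52% of all measured genes.

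Genes of the immediate early and stress response were higher in positive cells as a list. Of 20 listed genes 19 were measured, 8 were at least 2-fold higher, against 6.52% of all measured genes, and none was 2-fold lower, against 2.07%. The median log2 fold was 0.73, with summed levels of 98.0 and 59.9. They are Nr4a1, Egr1, Ier2, Ier3 and Btg2, induced early after stimuli, Zfp36, for a protein that destabilises mRNA, Dusp1, for a phosphatase of MAP kinases, and Hspb1, for a small heat shock protein. Nr4a1 had a UMI in 15 of 54 positive and 7 of 129 zero cells, at 1.29 against 0.313, and Zfp36 in 21 and 23 cells, at 2.86 against 0.825. Dusp1 stood at 4.52 (3.71 to 5.46) against 1.74 (1.33 to 2.23) and Egr1 at 3.03 (2.37 to 3.81) against 1.05 (0.741 to 1.45). Summed by Ovgp1 count of 0, 1, 2 to 4 and 5 or more, the list stood at 59.9, 90.7, 132.0 and 81.1, so its highest value is not in the cells richest in Ovgp1. Such genes are known to respond to enzymatic dissociation, which was used here, and their part in the other differences was not tested.

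Of 13 measured genes of antigen presentation and interferon response 2 were at least 2-fold higher, Bst2 and Psmb9, against 6.52% of all measured genes (median log2 fold 0.62). Bst2, for an interferon-induced membrane protein, had a UMI in 24 of 54 positive and 17 of 129 zero cells. The summed level of the list was lower in positive cells, 99.3 against 127.0, with Ifitm1 at 38.6 against 62.8. Ribosomal protein genes summed to 1085 against 916, with 1 of 90 measured past 2-fold, downward.

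Cilium genes were lower in positive cells as a list. Of the 48 structure genes 43 had a log2 fold below 0, where 2379 of all 5740 measured genes had. At least 2-fold lower were 3, against 2.07% of all measured genes, and none was 2-fold higher (median −0.43). Ccdc153 stood at 19.96 against 32.6, the dynein light chain gene Dynlrb2 at 13.9 against 20.4 and Tmem212 at 14.9 against 21.4. Past 2-fold were Spa17, a gene of sperm and cilia, at 1.74 (1.26 to 2.36) against 4.70 (4.01 to 5.47), Cfap53 at 0.373 against 1.11 and Cfap52 at 0.456 against 1.05. Of the 7 measured regulators none was past 2-fold in either direction. Their median was −0.10 and lay between −0.21 and 0.55 under the other settings tried, with Rfx2 and Rfx3, partners of Foxj1, at 0.415 against 0.512 and 0.456 against 0.655.

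The 12 genes with the largest folds downward included further axoneme genes. Rsph14, named for the radial spoke, stood at 0.207 against 1.02 and Tcte1, of the dynein regulatory complex, at 0.290 against 1.20. AU040972 stood at 1.91 (1.40 to 2.55) against 5.75 (4.98 to 6.598) and Ccdc121 at 0.415 against 1.71. By Ovgp1 count of 0, 1, 2 to 4 and 5 or more, AU040972 stood at 5.75, 3.37, 0.617 and 1.56 and Ccdc121 at 1.71, 0.748, 0.154 and 0.312. The others were Zfp106, Dbp, a clock output gene, Lat, Srek1ip1, Csrp2, Trove2, Galnt18 and Cdc42ep3, with 2 to 13 UMI each in positive cells.

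The 7 Wfdc18-rich cells were also left out, a choice made after seeing the data. They are all positive and were picked for a member of the secreted products list, so a smaller difference of that list follows in part from leaving them out. Of 14 measured secreted products, 2 were at least 2-fold higher (Ctsb and Wfdc15b), against 6.13% of measured genes, and 1 was 2-fold lower, against 2.69%, with a median log2 fold of 0.16. Wfdc18 then had 7 UMI in 47 positive cells. The cilium list moved to −0.12 with 2 of 48 genes 2-fold lower, and the endoplasmic reticulum list to 0.18. The stress list had 6 of 19 genes at least 2-fold higher and a median of 0.50.

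The 23 cells with exactly 1 Ovgp1 UMI were also compared, and some of the Wfdc18-rich cells are among them. A single cell held 29 of the 37 Wfdc18 UMI of the 23 cells. Against the zero cells 2 of 15 measured secreted products were 2-fold higher, where 10.2% of all measured genes were, and 1 was lower, where 5.95% were (median 0.14). Stress genes were higher for 7 of 18 (median 0.56) and cilium genes had a median of −0.30. With cells of at least 1000 UMI each weighing alike, 46 positive and 95 zero cells, 4 of 16 secreted products were 2-fold higher against 7.66% of measured genes, and none was lower, against 3.42% (median 0.47), 6 of 20 stress genes were higher (0.61) and the cilium median was −0.25. Without the 5 cells with most Ovgp1, 2 of 15 secreted products were 2-fold higher, against 6% of measured genes, and none was lower, against 2.17% (median 0.32), while 8 of 19 stress genes were higher (0.83). The plot of list medians by choice of cells sets these side by side.

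**Figure D5:**
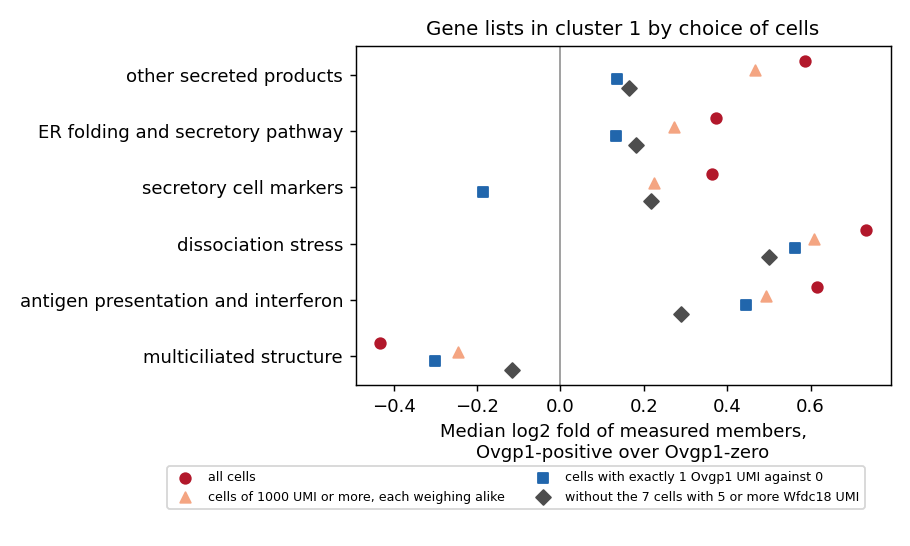
Median log2 fold of the measured members of 6 gene lists, Ovgp1-positive over Ovgp1-zero, for all cells and 3 other choices of cells. The list of other secreted products goes down to 0.16 without the 7 Wfdc18-rich cells, while the dissociation stress list stays at 0.50 or above in all 4.

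Within the depth classes the secreted products list had medians of 1.52, 0.55 and 0.91 in the lowest, middle and highest class, where 11, 15 and 28 positive cells stand against 50, 46 and 33 zero cells. The value of the lowest class rests on 9 measured genes in 11 shallow cells. The stress list had medians of 0.79, 0.53 and 0.95 and the cilium list −0.10, −0.17 and −0.52. The cilium difference was thus widest in the class that holds the deepest cells.

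Markers of other cell types were low in both sets. The smooth muscle list summed to 6.39 in positive and 3.30 in zero cells, with 2 of 5 measured genes at least 2-fold higher, Tagln and Acta2, against 6.52% of all measured genes. A single cell held 72.2% of the Tagln and 72.4% of the Acta2 of positive cells, and without the 7 Wfdc18-rich cells, of which it is one, the log2 fold of Acta2 was −0.63. All 8 smooth muscle markers had a UMI in cluster 1. Fibroblast markers summed to 1.83 and 1.62, with 3 of 8 measured and none past 2-fold. Immune (0.830 and 0.285), endothelial (0.249 and 0.228), mesothelial (0.249 and 0.0854) and erythroid (0 and 0.0569) lists had no measured member, and Ptprc, the gene of CD45, had 0 UMI in both sets.

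The authors' clustering of adult and P4 cells together kept the sets in 1 place. Merged cluster 0 held 50 of 54 positive and 128 of 129 zero cells. Of the other positive cells 1 each lay in merged clusters 1, 2 and 6 and 1 is not in the merged table, and the other zero cell lay in merged cluster 1. The cell in merged cluster 2 is the one with the lowest cilium level. Of the 7 Wfdc18-rich cells 5 lay in merged cluster 0.

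In adult cluster 3, outside the rule, 31 of 37 cells had an Ovgp1 UMI and 6 had none, too few for a like comparison. The 31 held 110728 UMI (median 3732) and the 6 held 12449 (median 998.5). Ctsb stood at 10.6 in positive and 2.41 in zero cells of that cluster (3 UMI), and Wfdc18 at 0.993 and 0.803, from 11 UMI and 1 UMI. Dusp1 stood at 21.2 and 20.9.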

How the data were processed

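Dissociated oviduct cells of adult C57BL/6 mice were sorted and sequenced as 1 library of 10x Chromium 3' V2, per the labels' protocols. Seurat 2.3.4, Cell Ranger and build mm10 are named per the submitters' processing notes, and the Cell Ranger version is not given in the sources used here. The authors deposited a table of raw UMI counts without normalization and a table of cluster numbers per cell, from which cluster 1 was taken. The adult table has 807 columns under 2 prefixes for 406 barcodes, 401 of them listed under both, and columns of the first prefix were taken. The P4 library was not used except through the merged cluster numbers.

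From these counts, pooled levels per 10000 UMI were computed with exact 95% Poisson intervals, ratios with exact conditional intervals and shares of cells with exact Clopper-Pearson intervals. Folds used a pseudocount of 0.1 per 10000, and past a fold means at least 2-fold. A gene was measured if at least 10% of cells of either set had a UMI. Thinned shares are the expected share at 1000 UMI per cell, which left out 8 positive and 34 zero cells. No p-value was computed, since there is 1 library. No doublet caller was run on so few cells, and whether doublets were removed before deposit is not stated. Depth was 241024 UMI in positive and 351396 UMI in zero cells.

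Named genes were always Ovgp1, Foxj1, Epcam, Wt1, Pax8 and every measured secreted product, and the 12 measured genes with the largest fold per direction. The rule for these 12 asked for at least 20 counts on the higher side and left out ribosomal protein, mitochondrial, Gm and Rik genes. List members past 2-fold with 20 counts were named too, and others named were chosen after their values were seen. The members and the gene lists were chosen with earlier results of these data known. Gene positions are from GENCODE M21. The scripts were tested on simulated data. Software was Python 3.11.15 with numpy 2.4.6, pandas 2.3.3 and scipy 1.17.1.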

Additional observations from a re-analysis of the deposited data

How the results depend on the processing

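The main comparison had 374 genes at least 2-fold higher and 119 lower, and list medians of 0.59 for secreted products, 0.73 for stress genes and −0.43 for cilium genes. Higher and lower counts were 587 and 226 with 2 or more Ovgp1 UMI as the threshold, 924 and 810 within the middle depth class, 970 and 447 within the highest, 46 and 12 with a pseudocount of 0.5, 715 and 362 with no filter, 72 and 20 with a filter of 25% of cells, and 600 and 326 without cells that carry 2 or more non-epithelial markers, which leaves out 28 positive and 50 zero cells. Counts of lower genes were 299 with exactly 1 Ovgp1 UMI, 220 with cells of at least 1000 UMI weighing alike, 392 within the lowest class and 70 with the second column of a repeated barcode. The cause of these shifts was not tested.

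The cilium median was −0.55 with 2 or more Ovgp1 UMI, −0.30 with exactly 1, −0.20 as a mean over cells, −0.25 with cells weighing alike at 1000 UMI, −0.10 and −0.17 in the lowest and middle depth class, −0.14 without the 5% deepest cells and also without cells of 7000 UMI or more, −0.21 without cells with non-epithelial markers, −0.23 without the 5 cells with most Ovgp1 and −0.12 without the 7 Wfdc18-rich cells. The secreted products median was 1.52 in the lowest class. The stress median was 0.56 with exactly 1 Ovgp1 UMI, 0.53 in the middle class and 0.50 without the Wfdc18-rich cells. The settings without Wfdc18-rich cells and without cells of 7000 UMI or more were chosen after seeing the data. Under the other settings none of these 3 medians turned sign.

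Single genes turned sign, as log2 folds. With exactly 1 Ovgp1 UMI these were Lcn2 (−0.11), Plat (−0.89) and Acta2 (−0.48), and as a mean over cells Acta2 (−0.22). In the lowest class they were Shisa8 (−2.95), Tagln (−2.46), Sox17 (−2.95), Egr1 (−1.70), Dusp1 (−1.70), Clu (−2.46), Acta2 (−3.61), Hspa5 (−2.95), Wfdc2 (1.95), Srek1ip1 (1.01), Lat (0.52) and Rsph14 (0.52). In the middle class they were Ccnd1 (−0.76), Plat (−1.26), Shisa8 (−0.76), Wfdc15b (−0.13), Clu (−2.87), Acta2 (−2.16), Cfap52 (0.35) and Lat (0.053). Without the 5% deepest cells, and likewise without cells of 7000 UMI or more, they were Sepp1 (−0.054) and Acta2 (−0.70). Without cells with non-epithelial markers they were Shisa8 (−0.44), Tagln (−0.44), Acta2 (−0.35) and Lat (0.084). Without the 5 cells with most Ovgp1 it was Acta2 (−0.57). Without the Wfdc18-rich cells they were Wfdc18 (−0.48, by construction), Sepp1 (−0.075) and Acta2 (−0.63). With the second column of a repeated barcode, 57 of 62 positive cells lay in merged cluster 0.

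No paired analysis was possible because the comparison lies within 1 library and no replicate numbers are shared. Depth limits these results, with a median of 3862.5 and 2945 UMI per cell. A zero cell cannot be told from a cell with Ovgp1 below detection. Wfdc18 had a UMI in 15.8% and Lcn2 in 6.01% of cluster 1 cells. In clusters 0 and 4, at a median of 3221 UMI, they had one in 94.4% and 77.6% of cells. The part of depth in these zeros was not tested.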
